A study of Rattus norvegicus with 16 samples.

Results

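The genes described here are 38 genes of macrophages and monocytes, followed in the lung and adipose tissue of rats made allergic to house dust mite (HDM). They were taken from a list of symbols and read through the RefSeq transcript that each array probe was designed for. A probe was matched for 37 of the 38 genes, out of 16678 symbols with a probe on the array, and Timd4 was the gene without one. Where a gene had more than 1 probe, the probe with the highest mean log2 signal in the tissue was used.

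All animals were male Brown Norway rats, 7 weeks old. The 5 HDM-induced rats received subcutaneous HDM, 45 µg mixed with aluminium hydroxide, 1 time a week over 3 weeks, followed over the next 3 weeks by intranasal doses of 120 µg, given 3 times a week. The 3 control animals received saline with the same aluminium hydroxide adjuvant and then intranasal saline, so the adjuvant was shared by both groups and the contrast is the allergen. Lung and adipose tissue of the same 8 rats were hybridised to 16 one-colour microarrays, and every value below is the log2 signal of a probe minus the 75th percentile of its own array. A log2 difference of 1 is therefore a doubling, and each array is 1 rat.

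Macrophages are phagocytes found in every tissue. Some are resident cells that settle early and renew themselves locally, and others arise from blood monocytes, which leave the circulation along gradients of chemokines such as Ccl2 and Ccl7 through the receptor Ccr2. In the lung, alveolar macrophages clear surfactant and inhaled particles with scavenger receptors such as Marco. In adipose tissue, macrophages lie between fat cells, take up lipid and dead cells, and are a main source of the complement component C1q. Growth of the whole lineage depends on Csf1 acting on its receptor Csf1r, and its gene programme on the transcription factor PU.1, which is the product of Spi1.

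Promoter sequences are shown for 3 genes the results return to, Ccl7 and the neighbouring C1qa and C1qb. Of the 37 measured genes, 23 had an entry in the RefSeq promoter table of the GRCr8 assembly, with 25 annotated starts in all, and only the 250 bases before the start are printed and searched. Each line runs 5′ to 3′ on the strand of the gene, and capitals mark a match to GAGGAA, the core of the PU.1 site, to TGANTCA, the AP-1 site, or to TATAAA, each searched on both strands.
Ccl7, plus strand, chr10:67513845-67514094: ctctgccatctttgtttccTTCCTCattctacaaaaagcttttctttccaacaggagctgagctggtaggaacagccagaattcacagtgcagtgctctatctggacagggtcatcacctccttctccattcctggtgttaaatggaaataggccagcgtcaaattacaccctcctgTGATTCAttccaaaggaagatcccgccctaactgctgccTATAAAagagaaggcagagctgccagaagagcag
C1qa, minus strand, chr5:154419934-154420183: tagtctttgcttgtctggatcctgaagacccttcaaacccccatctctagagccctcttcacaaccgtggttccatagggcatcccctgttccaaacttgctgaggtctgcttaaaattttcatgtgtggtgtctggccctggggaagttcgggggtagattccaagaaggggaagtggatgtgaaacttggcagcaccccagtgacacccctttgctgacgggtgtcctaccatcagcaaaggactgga
C1qb, minus strand, chr5:154407828-154408077: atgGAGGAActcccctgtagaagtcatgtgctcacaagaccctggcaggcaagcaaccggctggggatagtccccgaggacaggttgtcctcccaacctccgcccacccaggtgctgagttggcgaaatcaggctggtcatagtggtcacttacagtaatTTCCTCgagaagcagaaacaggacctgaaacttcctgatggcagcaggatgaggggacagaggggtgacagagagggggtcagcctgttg
The GAGGAA core was found before 12 of the 25 starts, against 23.3% of the 33469 promoters in the table. TGANTCA was found before 4 of them, against 6.34% of all promoters, and TATAAA before 5, against 12.9%. The kappa-B motif of NF-kB was present before Il6 alone, against 0.314% of all promoters. Ccl7 held the first 3 of these motifs within its 250 bases, C1qb held the PU.1 core at 2 places, and C1qa held none of the 4. A match of letters in a window describes the sequence and was not tested for binding.

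The lung arrays had 62.2% to 68.9% of probes well above background and the adipose arrays 51.2% to 60.3%. Surfactant and airway genes were bright in the lung and adipocyte genes in adipose tissue, as the labels give them. Among the adipose samples, control rat 1 and HDM rat 1 had very high signal of epididymis genes. Adam7, for example, was 9.64 and 8.97 in these 2 samples and between -3.80 and -2.18 in the other 6. The array of adipose HDM rat 2 had 1711 spots set aside as outliers, against 410 to 566 on the other adipose arrays. Adipose control rat 3 had a smaller excess, with epididymis genes summing to 41.3 in units of the array's 75th percentile, against 0.477 to 5.28 in the other 5 samples. For the adipose medians of lineage, resident and inflammatory genes, values without control rat 1, HDM rat 1 or HDM rat 2 stand beside those with them. Single genes are given without 1 or more of these samples in some cases only. Control rat 3 was kept wherever control rat 1 was left out. Because whole tissue was measured, fewer cells of a type and less RNA per cell cannot be told apart. The labels put each rat in its group as a separate animal.

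In the lung of HDM-induced rats, the monocyte chemokines Ccl2 and Ccl7, the monocyte receptor Ccr2 and the IgG receptor Fcgr1a gave the largest differences among the 37 genes, all above the control animals, while the resident macrophage genes lay near the control level. No gene of the 37 passed the threshold used here, an adjusted p under 0.05 in limma together with a change over 1.5-fold, against 0.855% of all probes and 1.12% of symbols (0.63% higher and 0.492% lower). At an unadjusted p under 0.05 there were 12, 11 of them higher and 1 lower in HDM-induced rats, against 12.7% of symbols (6.31% higher and 6.34% lower). In 11 genes the HDM-induced and control animals did not overlap, 10 higher and 1 lower, against 13.2% of symbols (5.94% and 7.27%). The methods' t-test with the same thresholds also called none of the 37.

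Ccl2, which draws monocytes through Ccr2, was 0.35, 0.48, 0.93, -0.09 and 0.93 in the lungs of HDM-induced rats 1 to 5. In control animals it was -0.21, -0.48 and -1.28. All 5 HDM-induced rats lay above all 3 control animals, with a log2 difference of 1.17 ± 0.31 (SE) or 2.26-fold, a 95% confidence interval of 0.45 to 1.90 and an adjusted p of 0.185. Ccl7, its neighbour in the genome and a ligand of the same receptor, was -1.21, -1.04, -0.86, -1.46 and -0.74 in HDM-induced rats and -1.75, -2.10 and -2.77 in control animals. The groups were again apart, with a log2 difference of 1.15 ± 0.26 (2.21-fold, interval 0.56 to 1.73, adjusted p = 0.11). Control rat 3 was the lowest animal for both chemokines, and without it the differences were 0.86 for Ccl2 and 0.86 for Ccl7.

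The receptor Ccr2, carried by monocytes on their way into tissue, was -1.63, -1.83, -1.27, -1.63 and -2.15 in the lungs of HDM-induced rats. Control animals had -2.46, -2.64 and -2.75. The groups did not overlap, and the log2 difference was 0.91 ± 0.19 (1.89-fold, interval 0.47 to 1.36, adjusted p = 0.0931). Ccl4, an inflammatory chemokine, also stood apart, between -0.55 and -0.09 in HDM-induced rats and between -1.13 and -0.76 in control animals, at 0.55 ± 0.15 (adjusted p = 0.188). Its neighbour Ccl3 overlapped, with a difference of 0.53 ± 0.36, as did Tnf, the cytokine that starts many inflammatory programmes, at 0.62 ± 0.41, and Nos2, the inducible nitric oxide synthase, at 0.53 ± 0.25. For Il6 no array of either tissue gave a signal clear of background, so no level was measured.

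The 8 inflammatory genes together had a median log2 difference of 0.58 in the lung, against 0.00 over all probes, and all 8 differences were above 0, the unmeasured Il6 at 0.02. Leaving out 1 rat at a time gave medians of 0.49 to 0.87, the highest of them without control rat 1. HDM rats 1 to 4 lay on one row of the slide, and HDM rat 5 on the other row beside the 3 control animals. Within that shared row, HDM rat 5 was above all control animals for Ccl2, Ccl3, Ccl4, Ccl7, Ccr2, Tnf and Nos2, and the median of the 8 genes was 1.08.

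Genes that mark the lineage as a whole gave smaller differences, and all 11 were above 0, with a median of 0.46. Fcgr1a, the high-affinity IgG receptor, was 3.89, 3.57, 4.08, 3.41 and 3.60 in HDM-induced rats and 3.12, 2.92 and 2.63 in control animals, a difference of 0.82 ± 0.19 (1.77-fold, adjusted p = 0.118) with no overlap. Spi1 was between -0.04 and 0.32 in HDM-induced rats and between -0.62 and -0.35 in control animals, at 0.55 ± 0.12 (adjusted p = 0.107). Cybb, the catalytic subunit of the phagocyte oxidase, had the smallest adjusted p of the 37 genes, 0.0906. Its values of -0.49, -0.63, -0.67, -0.51 and -0.68 in HDM-induced rats lay above -1.01, -1.08 and -1.08 in control animals, a difference of 0.46 ± 0.10, which is 1.38-fold and under the fold threshold.

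Adgre1, an adhesion receptor used as a macrophage marker, differed by 0.64 ± 0.19 without overlap. The growth factor Csf1 differed by 0.44 ± 0.16 without overlap at the probe used, and by 0.52 ± 0.21 with overlap at its other probe. Cd68, a lysosomal protein of macrophages, differed by 0.27 ± 0.10 without overlap. Ncf1, the oxidase organiser, differed by 0.46 ± 0.16 with overlap at the probe used and 0.39 ± 0.13 without overlap at its other probe. The other lineage genes overlapped between groups, with the calcium-binding Aif1 at 0.51 ± 0.24 (0.62 ± 0.17 without overlap at its other probe), Csf1r at 0.14 ± 0.25 and Laptm5, a lysosomal membrane protein of blood cells, at 0.04 ± 0.12. The fractalkine receptor Cx3cr1, carried by patrolling monocytes and interstitial macrophages, differed by 0.10 ± 0.23.

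The 12 measured resident genes had a median difference of -0.09 in the lung, with 5 above 0 and 7 below. Lyve1 was the only one whose groups did not overlap. This hyaluronan receptor, found on perivascular macrophages and also on lymphatic and lung capillary endothelium, was 4.25, 4.13, 3.96, 4.33 and 4.14 in HDM-induced rats and 4.69, 4.53 and 4.52 in control animals, a difference of -0.41 ± 0.12 (1.33-fold lower, interval -0.68 to -0.15, adjusted p = 0.212). The scavenger receptors of alveolar and interstitial macrophages all overlapped, with Marco at -0.40 ± 0.20, Cd163 at -0.27 ± 0.25, Mrc1 at -0.13 ± 0.15 and Msr1 at 0.10 ± 0.16. Siglec1, a sialic acid receptor, gave -0.21 ± 0.17 and the complement receptor Vsig4 -0.39 ± 0.28.

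C1qa, C1qb and C1qc, which encode the 3 chains of complement C1q, differed by 0.17 ± 0.12, 0.01 ± 0.12 and 0.05 ± 0.14 in the lung. Their intervals, -0.11 to 0.45, -0.27 to 0.29 and -0.26 to 0.37, all lie within a 1.5-fold change in either direction. The folate receptor Folr2 gave 0.15 ± 0.15, and Car4, a carbonic anhydrase of alveolar macrophages that lung capillary cells also carry, -0.06 ± 0.11. Without lung control rat 3 the median of the resident genes was -0.04, without HDM rat 3 -0.06 and without HDM rat 4 -0.15.

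Regulatory and remodelling genes stayed within the spread of the animals, and none of the 6 had groups that did not overlap. Gpnmb, a glycoprotein of lipid-handling and wound macrophages, was 3.92, 3.59, 3.90, 3.87 and 3.69 in HDM-induced rats. In control animals it was 3.05, 2.65 and 3.92, so that 1 control animal reached the level of the HDM-induced rats, and the difference was 0.59 ± 0.26. Spp1, which encodes osteopontin, gave 0.38 ± 0.49, Arg1, the arginine-consuming enzyme of alternatively activated macrophages, 0.16 ± 0.17, and Lgals3, the galectin of phagocytosing cells, 0.12 ± 0.14. Apoe was at -0.10 ± 0.10 and Il10, an anti-inflammatory cytokine, at 0.11 ± 0.32 from a probe above background on 6 of the 8 arrays.

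**Figure D1:**
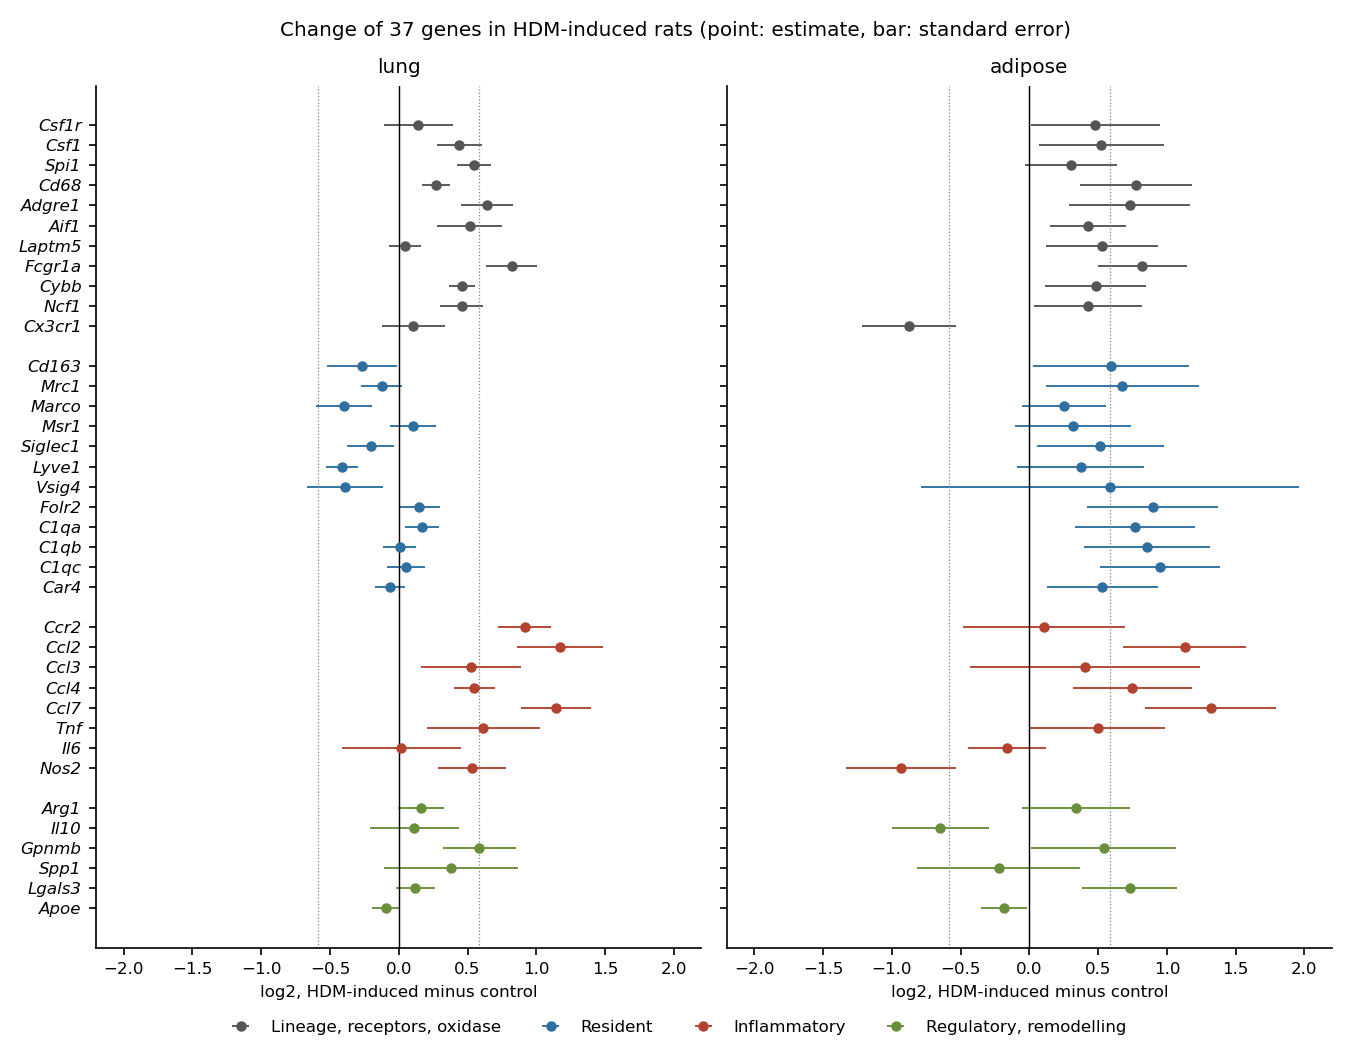
Log2 difference between HDM-induced and control rats (x axis) for each of the 37 genes (y axis, grouped and coloured by role) in lung (left) and adipose tissue (right). Points are limma estimates from 5 and 3 rats, bars their standard errors, dotted lines a 1.5-fold change; the 12 resident genes centre on -0.09 in the lung and on 0.59 in adipose tissue, where the bars are wider, and Il6 was not above background in either tissue.

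The plot of all changes shows these groups side by side. A wider list of 48 genes of the same cells, 44 of them with a probe, gave 4 called genes in the lung, all higher in HDM-induced rats, against 0.63% of symbols called higher. Ncf4, another oxidase subunit, rose by 1.04 ± 0.14 (adjusted p = 0.0226), the integrin Itgam by 1.03 ± 0.15 (adjusted p = 0.0285), the chemokine receptor Ccr1 by 1.06 ± 0.16 (adjusted p = 0.03) and the cytokine Il1b by 1.62 ± 0.26 (adjusted p = 0.0373). For Il1b the 5 HDM-induced rats lay between 3.41 and 4.63 and the 3 control animals between 2.18 and 2.49. Under leave-one-out fits the adjusted p of these 4 genes rose to as much as 0.137 for Itgam, 0.148 for Il1b, 0.145 for Ccr1 and 0.115 for Ncf4. Of the 44, 12 lay apart and higher and 3 apart and lower, against 5.94% and 7.27% of symbols, the latter being the Csf1r ligand Il34, the nuclear receptor Pparg of alveolar macrophages and the lectin Clec10a, at -0.74 ± 0.14, -0.49 ± 0.11 and -0.49 ± 0.12.

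Neutrophils also express Itgam, Il1b, Ccr1, Ncf4 and the oxidase genes, and their markers differed in the same lungs. Of 10 neutrophil genes with a probe, 5 were called and all 5 were higher, S100a8 by 4.46 ± 0.29, S100a9 by 4.09 ± 0.24, Mmp8 by 3.95 ± 0.25, Cxcr2 by 2.46 ± 0.14 and Csf3r by 2.18 ± 0.15 (adjusted p between 0.000354 and 0.00075). The formyl peptide receptor Fpr1 went the other way without overlap, at -0.66 ± 0.14 (adjusted p = 0.0877). The summed level of the 10 genes, in units of the array's 75th percentile, was 130 to 277 in HDM-induced rats and 15.6 to 16.4 in control animals, and Elane was not above background on any lung array. The part of neutrophils in the values above was not tested. Among the markers of eosinophils, T cells, B cells, dendritic cells, endothelium, lung, adipose tissue and epididymis, 38 genes with a probe, none was called in the lung, and 6 had an unadjusted p under 0.05.

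**Figure D2:**
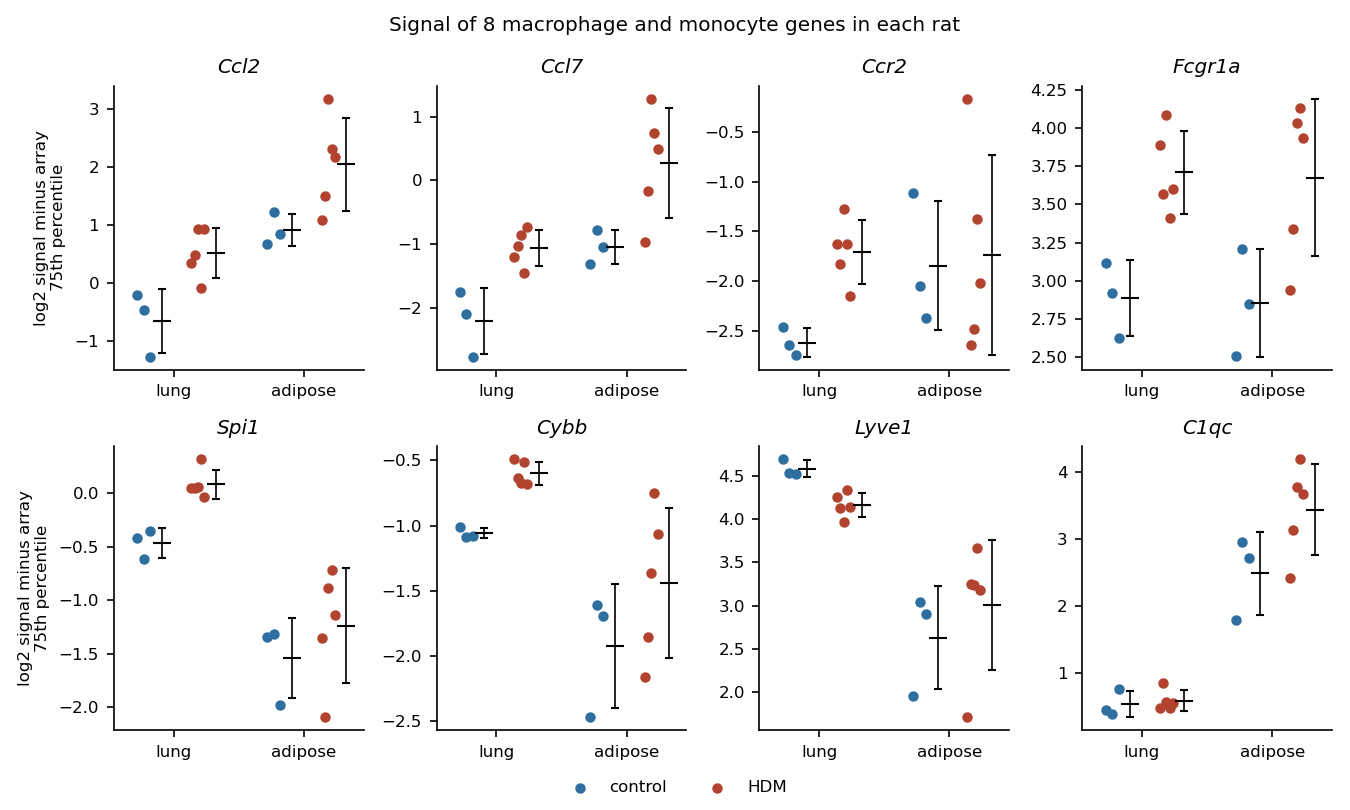
Signal in every rat (y axis, log2 signal minus the 75th percentile of the array) of 8 genes in lung and adipose tissue (x axis), with control animals in blue (n = 3) and HDM-induced rats in red (n = 5); black marks are the mean and SD. In the lung the groups are apart in 7 of the 8 genes, with Lyve1 lower and C1qc overlapping, and in adipose tissue they overlap in all 8. The 8 genes are a selection and do not stand for the list. Over all 37 genes the groups are apart in 11 in the lung, against 13.2% of symbols.

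In adipose tissue the same contrast had a much wider spread between rats, as the plot of values per rat shows. The median over the 37 genes was 0.52, against 0.16 in the lung. Ccl7 and Ccl2 again had the largest differences of the genes well above background, and all 12 resident genes lay above 0. No gene of the 37 was called by limma, nor was any probe of the array (0% of all probes and of symbols). At an unadjusted p under 0.05 there were 5, 3 of them higher and 2 lower, against 7.94% of symbols (1.38% higher and 6.57% lower), and in none of the 37 were the groups free of overlap, against 5.68% of symbols (2.16% higher and 3.52% lower). The methods' t-test called none either. The adipose slide was laid out like the lung slide. HDM rats 1 to 4 lay on one row, and HDM rat 5 beside the 3 control animals on the other. Within that shared row, HDM rat 5 was above all control animals for Ccl2, Ccl7 and Tnf. It was not above all of them for Ccr2, Ccl3 and Ccl4, and below all for Nos2. Its median deviation was 0.12 over the 8 inflammatory genes and 0.94 over the 12 resident genes.

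Adipose Ccl2 was 1.07, 1.49, 3.17, 2.30 and 2.16 in HDM-induced rats and 0.67, 1.21 and 0.84 in control animals. HDM rat 1 fell between the control animals and the other 4 lay above them, with a difference of 1.13 ± 0.45 (2.19-fold, interval 0.10 to 2.16, adjusted p = 0.472). Ccl7 was -0.96, -0.16, 1.28, 0.74 and 0.49 in HDM-induced rats and -1.31, -0.77 and -1.04 in control animals. Its difference was 1.32 ± 0.48 (2.49-fold, interval 0.22 to 2.42, adjusted p = 0.44), and HDM rat 1 was again the animal that overlapped. When HDM rat 1 and control rat 1, the samples with the strongest epididymis signal, were both left out, the differences were 1.25 for Ccl2 and 1.49 for Ccl7.

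Ccr2 gave a smaller estimate than its ligands in adipose tissue, with a wide interval. It was -0.17, -2.65, -2.48, -1.38 and -2.02 in HDM-induced rats and -1.12, -2.05 and -2.37 in control animals. The highest value of each group was in control rat 1 and HDM rat 1. The difference was 0.11 ± 0.59, and its interval of -1.25 to 1.46 holds the estimates of both ligands. Tnf gave 0.50 ± 0.49, with both of those samples lowest in their groups. Ccl4 was above background on 2 of 5 HDM arrays and on no control array, and its groups overlapped (0.75 ± 0.43, interval -0.25 to 1.75). Nos2 was -0.93 ± 0.40 (adjusted p = 0.498), from a probe above background on only 2 of the 8 arrays. Ccl3 was 1.92 in HDM rat 2 and between -1.91 and -1.15 in the other 4 HDM-induced rats, so its difference of 0.41 ± 0.84 was -0.27 without that array. The 8 inflammatory genes had a median of 0.45, against -0.15 over all probes. This median was 0.23 without control rat 1, 0.73 without HDM rat 1, 0.38 without HDM rat 2 and 0.77 without control rat 2. It was 0.36 without HDM rat 1 and control rat 1 together.

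The complement genes of resident macrophages stayed in step with each other across the adipose samples. C1qb was 5.31, 6.27, 6.75, 7.04 and 6.85 in HDM-induced rats and 4.80, 6.09 and 5.88 in control animals. C1qa followed with 4.57, 5.56, 5.97, 6.31 and 6.07 against 4.26, 5.39 and 5.13, and C1qc with 2.42, 3.13, 3.77, 4.19 and 3.68 against 1.79, 2.96 and 2.71. In all 3 genes HDM rat 1 was the lowest and HDM rat 4 the highest of the HDM-induced rats, and control rat 1 the lowest of the control animals. Their differences were 0.85 ± 0.46, 0.77 ± 0.43 and 0.95 ± 0.44 (adjusted p between 0.53 and 0.62), and HDM rats 2 to 5 were above all control animals in each. Without control rat 1 the differences were 0.46 for C1qb, 0.43 for C1qa and 0.60 for C1qc, and without both rat 1 samples 0.74, 0.72 and 0.86.

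Other resident genes of adipose tissue gave 0.90 ± 0.47 for Folr2, 0.68 ± 0.56 for the mannose receptor Mrc1, 0.59 ± 0.57 for the haemoglobin scavenger receptor Cd163, 0.53 ± 0.40 for Car4, 0.52 ± 0.46 for Siglec1, 0.37 ± 0.46 for Lyve1 and 0.32 ± 0.42 for Msr1. Each of these had overlapping groups. Without control rat 1, Mrc1 was at 0.10, Cd163 at 0.09, Lyve1 at 0.03, Car4 at 0.23 and Folr2 at 0.46. Marco was above background on 2 of 5 HDM arrays and on no control array, also with overlap (0.25 ± 0.31, interval -0.46 to 0.96). Vsig4 was above background only in HDM rat 2, at -0.92 against -6.84 to -6.59 in the other HDM-induced rats, and its difference of 0.59 ± 1.37 became -0.57 without that array. The resident median was 0.59, against -0.15 over all probes. It was 0.27 without control rat 1, 0.88 without HDM rat 1 and 0.47 without both, and 0.62 without HDM rat 2.

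Lineage genes in adipose tissue had a median of 0.48, with 10 of 11 above 0. The median was 0.21 without control rat 1, 0.74 without HDM rat 1 and 0.43 without both, and 0.54 without HDM rat 2. Fcgr1a gave 2.94, 3.34, 4.04, 4.13 and 3.93 in HDM-induced rats and 2.51, 3.21 and 2.85 in control animals, a difference of 0.82 ± 0.32 (1.77-fold, interval 0.08 to 1.56, adjusted p = 0.469). Cx3cr1 went the other way, at 1.26, 0.96, 1.59, 1.70 and 2.02 in HDM-induced rats and 2.97, 2.49 and 1.69 in control animals, a difference of -0.87 ± 0.34 (adjusted p = 0.469) that was -0.52 without HDM rat 1 and control rat 1. Cd68 was at 0.77 ± 0.41, Adgre1 at 0.73 ± 0.44, Laptm5 at 0.53 ± 0.40, Csf1 at 0.52 ± 0.45, Cybb at 0.48 ± 0.37, Csf1r at 0.48 ± 0.47, Aif1 at 0.42 ± 0.28 and Spi1 at 0.31 ± 0.33. Csf1r was at 0.02 and Csf1 at 0.13 without control rat 1. Ncf1 differed by 0.43 ± 0.39 with overlap at the probe used, and by 0.57 ± 0.22 without overlap at its other probe. Lgals3 led the remodelling genes at 0.73 ± 0.35, followed by Gpnmb at 0.54 ± 0.53 and Arg1 at 0.34 ± 0.39, while Apoe, Spp1 and Il10 were at -0.18 ± 0.17, -0.22 ± 0.59 and -0.65 ± 0.35.

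**Figure D3:**
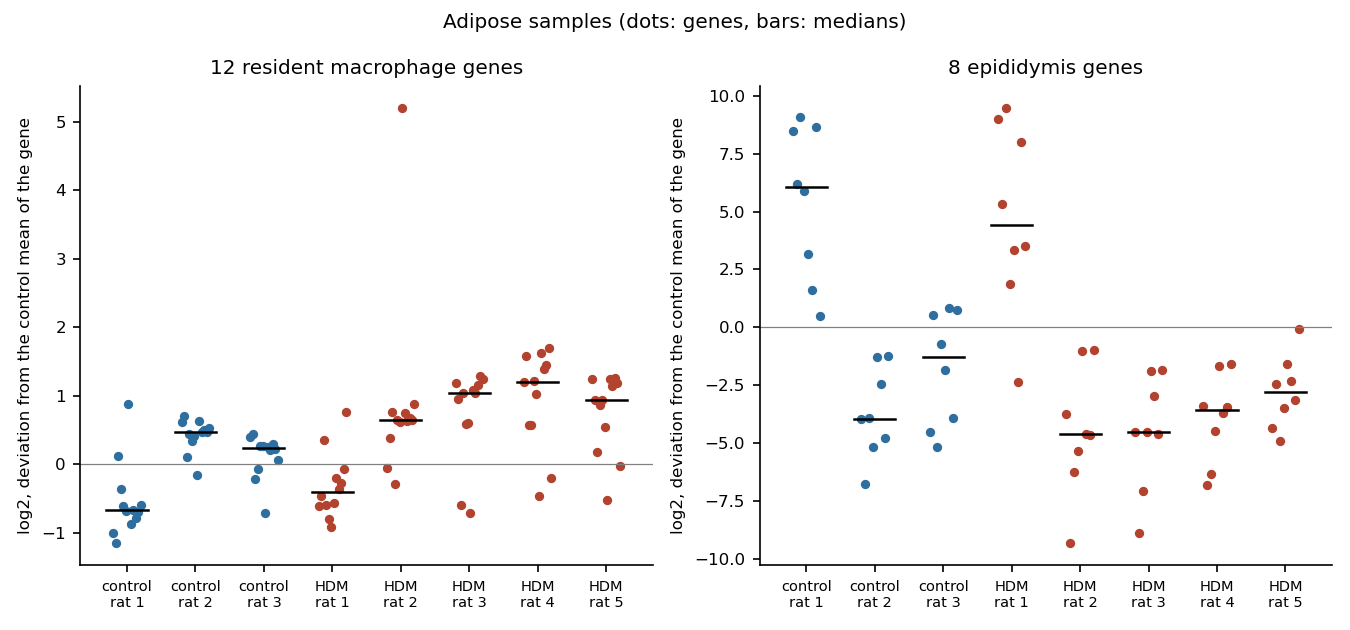
Deviation of each gene from its mean over the 3 control animals (y axis, log2) in the 8 adipose samples (x axis), for the 12 resident macrophage genes (left) and 8 epididymis genes (right), control animals in blue and HDM-induced rats in red. Dots are genes and bars medians; control rat 1 and HDM rat 1 have the lowest resident medians, -0.67 and -0.41, and the highest epididymis medians, 6.06 and 4.41, and the dot near 5.21 on the left is Vsig4 in HDM rat 2.

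The plot of the adipose samples shows how far 2 animals set the spread. Control rat 1 was the lowest of the 3 control animals in 28 of the 37 genes (75.7%) and in 29.2% of all probes. HDM rat 1 was the lowest of the 5 HDM-induced rats in 26 of the 37 (70.3%) and in 26.1% of all probes. These 2 samples also had the lowest medians of the 5 adipocyte genes, as deviations from a control mean that includes control rat 1. They were -1.14 in control rat 1 and 0.01 in HDM rat 1, against 0.37 to 0.78 in the remaining samples. Epididymis genes summed to 0.477 to 2350 in units of the 75th percentile over the HDM-induced rats and to 1.65 to 3099 over the control animals, and all 8 were above background on at least 1 adipose array. The part of this tissue in the macrophage values was not tested beyond leaving the samples out.

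Of the 44 further genes, none was called in adipose tissue, 8 had an unadjusted p under 0.05, against 7.94% of symbols, and 3 lay apart and higher and 1 apart and lower, against 2.16% and 3.52%. Ccl12, a chemokine of the Ccl2 family, was -1.64, -1.68, 0.11, -0.61 and -0.91 in HDM-induced rats and -2.18, -2.62 and -3.18 in control animals, at 1.72 ± 0.45 (adjusted p = 0.327). Cd14, the endotoxin co-receptor, gave 1.21 ± 0.44 and Mertk, a receptor for dead cells, -0.90 ± 0.24, with adjusted p of 0.44 and 0.33. None of the 10 neutrophil genes was called in adipose tissue. An unadjusted p under 0.05 was reached by 3, all higher in HDM-induced rats, against 1.38% of symbols higher. The 10 differences ranged from -1.89 to 4.66, with 5 above 0 and 5 below. S100a9 was 0.74 to 1.98 in HDM-induced rats and -2.91 to -2.13 in control animals (adjusted p = 0.0853), and Mmp8, Ngp and Elane were not above background on any adipose array. The summed neutrophil level overlapped, at 8.14 to 166 and 4.21 to 413, and its part was not tested. No gene of the other marker lists was called in this tissue, and 3 of the 38 had an unadjusted p under 0.05.

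Whether the response differed between the tissues was tested on the lung-minus-adipose difference within each rat, with the probe brightest over all 16 arrays. None of the 37 genes was called, against 1 probe in all (0.00219% of probes, 0% of symbols), and 1 had an unadjusted p under 0.05, against 7.06% of symbols. That gene was Nos2, with a lung change of 0.53 and an adipose change of -0.93, a difference of 1.46 ± 0.46 (adjusted p = 0.526), and its adipose values were mostly not above background. Ccl2 differed between tissues by 0.04 ± 0.48 (interval -1.06 to 1.15), Ccl7 by -0.17 ± 0.52 (-1.38 to 1.03) and Fcgr1a by 0.00 ± 0.41 (-0.94 to 0.94), so that differences of about 2-fold in either direction remain inside the intervals. The 12 resident genes all had a smaller change in the lung than in adipose tissue, with a median of -0.77, against 0.15 over all probes, and none of them reached an unadjusted p under 0.05. The median was -0.34 without control rat 1, with 11 of 12 below 0, and -0.60 without both rat 1 animals. Without HDM rat 2 it was -0.70, again with 11 below 0, and Vsig4 turned to 0.23. Neither Vsig4 nor Marco was above background on any adipose control array.

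In the 3 control animals the genes were set against each other between the tissues, each lung against the adipose tissue of the same rat. All lung arrays lay on 1 slide and all adipose arrays on the other, so slide and tissue cannot be told apart here. With this scaling 26 of the 37 genes were called, 10 higher in the lung and 16 higher in adipose tissue, where 41% of all probes and 38.6% of symbols were called (12.9% higher in the lung and 25.7% in adipose tissue). The methods' t-test called 0 of the 37 here, and leaving out 1 rat left 8 genes called without rat 1, 10 without rat 2 and 5 without rat 3. The median over all probes was -0.58. Quantile normalization moved it to -0.06 and left 15 genes called, 7 higher in the lung and 8 in adipose tissue. Scaling to Gapdh and Hprt1 gave 11 and 10. There were 13 genes called in the same direction under all 5 other scalings, and those named next are among them unless stated.

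Car4 was the gene with the largest lung excess, 4.74, 3.73 and 4.17 in the 3 rats, or 4.21 ± 0.28 and 18.5-fold (adjusted p = 0.00703). The chemokines Ccl4 and Ccl3 followed, with Ccl3 at 3.58 ± 0.40 (adjusted p = 0.0137), and Ccl4 at least 11.4-fold higher in the lung with this background correction, since no adipose control array had it above background. The alveolar scavenger receptor Marco was higher by 2.50 ± 0.20, also with no adipose control array above background, and Lyve1 was 3.85-fold higher. With normexp and quantile normalization Ccl4 differed by 1.52 and Marco by 0.93. Laptm5 was 1.68 ± 0.34 higher in the lung. Vsig4 was at least 2.43-fold higher in the lung, though only 0.42 on the log2 scale with normexp and quantile normalization, and Gpnmb, Ncf1 and Spi1 were higher by 1.93 ± 0.50, 1.32 ± 0.36 and 1.08 ± 0.27, but these 4 were not called under every scaling.

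On the adipose side Cd163 led, with lung-minus-adipose values of -2.90, -4.53 and -4.39, a mean of -3.94 ± 0.40 and 15.4-fold (adjusted p = 0.0122). Folr2 was 7.25-fold higher in adipose tissue, C1qa 7.03-fold, Spp1 6.40-fold, C1qb 5.38-fold, Apoe 4.22-fold and C1qc 3.86-fold (adjusted p between 0.011 and 0.0215). The 3 C1q genes thus pointed the same way in every rat. Siglec1, Cx3cr1, Ccl2, Csf1, Ccl7, Aif1, Il10, Arg1 and Nos2 were called higher in adipose tissue, by 2.01-fold to 3.31-fold, but not under every other scaling. Of these, Nos2 was above background on 1 of 3 adipose control arrays and Il10 on 2 of 3 lung control arrays.

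**Figure D4:**
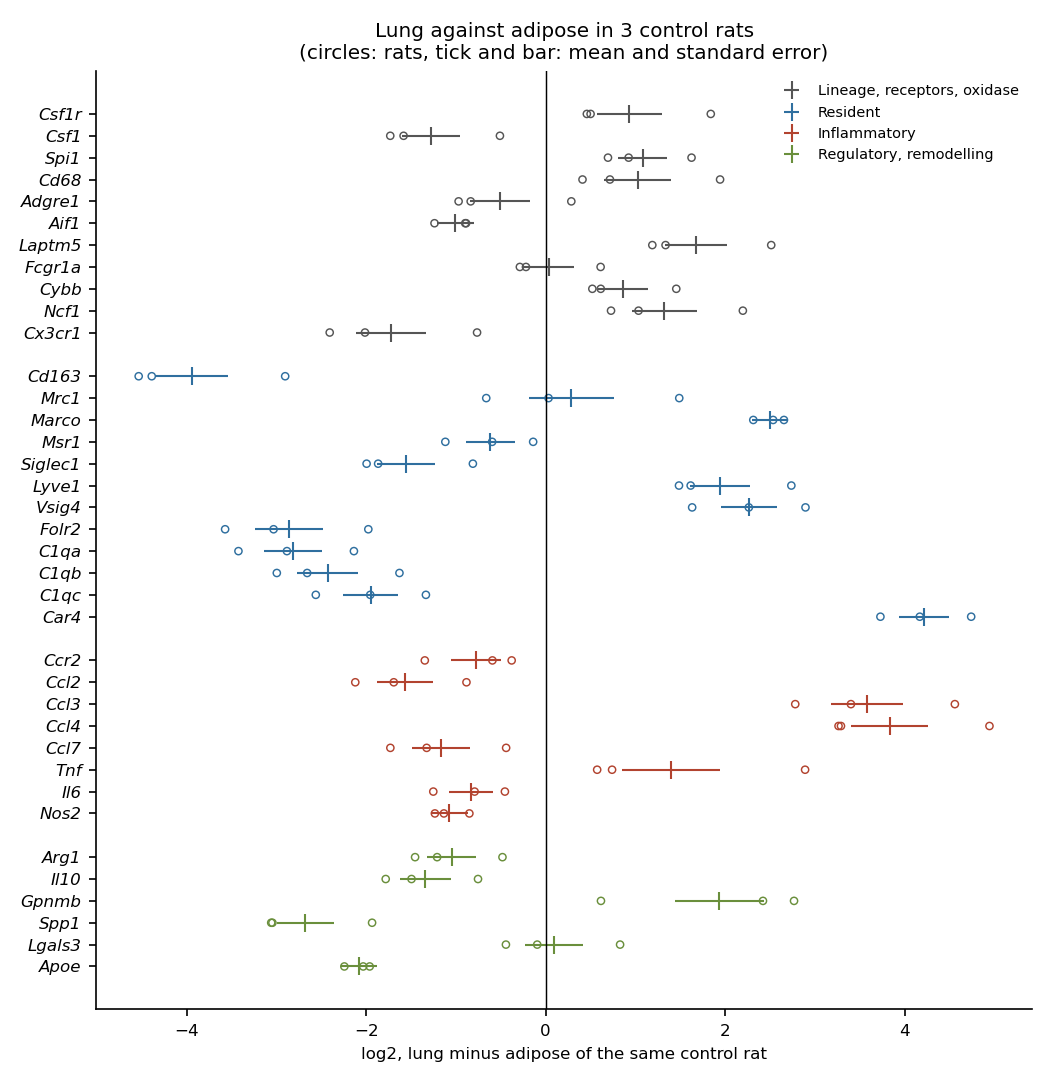
Lung-minus-adipose difference of each of the 37 genes (y axis, coloured by role) in control rats (x axis, log2), with circles for the 3 rats and a tick and bar for the mean and standard error. Car4, Ccl3, Ccl4 and Marco lie to the right and Cd163, Folr2, Spp1 and the C1q genes to the left, with all 3 rats on the same side of 0 for each of them.

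The plot of the tissue contrast shows resident genes on both sides of 0, 4 called higher in the lung and 6 in adipose tissue. Mrc1 and Lgals3 were close to 0 with rats on both sides, at 0.29 ± 0.47 and 0.10 ± 0.32. Msr1 was at -0.62 ± 0.27 and not called, with all 3 rats below 0 and an interval of -1.35 to 0.12. Adgre1 and Fcgr1a, at -0.51 ± 0.33 and 0.04 ± 0.28, were not called either and had rats on both sides of 0. Tnf, Cd68, Csf1r and Cybb were not called, at 1.40 ± 0.55, 1.02 ± 0.37, 0.93 ± 0.36 and 0.86 ± 0.28. All 3 rats were higher in the lung for each of them. Ccr2, also not called, was at -0.77 ± 0.28 with all 3 rats higher in adipose tissue. Control rat 1 is the animal whose adipose sample carried the strongest epididymis signal.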

How the data were processed

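RNA of lung and adipose tissue was labelled with Cy3 from 50 ng and hybridised to Agilent SurePrint G3 Rat arrays, and the authors deposited the scanner output of Feature Extraction 12.0.3.1. Its processed signal is an intensity, background-subtracted by that software. A deposited log2 table of the same arrays was used as an alternative. Its values were compared with array-scaled log2 intensities from which the median of each probe within its tissue was subtracted. They were within 0.1 of these for 99.97% of lung and 99.85% of adipose entries. Control probes and outlier spots were left out, spots of the same probe averaged as log2 values, and each array centred on its own 75th percentile, which left 45598 probes, 21229 of them with a symbol through RefSeq (GRCr8). limma 3.58.1 in R 4.3.3 (lmFit, eBayes) gave each contrast within a tissue, over all probes, with Benjamini-Hochberg adjustment. Tissue contrasts used within-rat differences. A gene was called at an adjusted p under 0.05 and over 1.5-fold. Between the tissues of control rats, Ccl4 and Vsig4 are given as bounds, because no adipose control array had them above background. The bound was set by the lowest signal well above background on each array. Other differences with no array of a group above background are given as estimates. All members are named in the text. Of the further list, called genes were named, or the 3 largest without overlap, and others named were chosen after their values were seen.

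The members, their roles and all lists were chosen with earlier results of these data known. Replicate numbers linked the lung and adipose array of a rat, but were not used to pair HDM-induced with control rats. Between these groups, correlations of same-numbered deviations were -0.06, -0.08 and 0.05 for the lung, against 0.59, 0.14 and 0.10 for adipose samples. The 0.59 belongs to HDM rat 1 and control rat 1. Rats of different numbers gave -0.09 to 0.06 in the lung and -0.56 to 0.36 in adipose tissue. The mean signal column was not used here, so normexp started from median signals with an offset of 50. The number of rats limits the precision. The fitting code was tested on simulated data. Alternatives covered the test, scaling, background correction, filter on dim probes, probe choice, blocks and leaving out rats.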

Additional observations from a re-analysis of the deposited data

Results flagged for a closer look

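Within the 5 HDM-induced rats, 7 of 74 sets of values (37 genes in 2 tissues) had 1 animal set off from the other 4 by Dixon's test, and chance alone sets off about 1 in 20. In the lung, Spi1 was 0.32 in HDM rat 4 and -0.04 to 0.06 in the others. Mrc1 was -1.02 in HDM rat 4 and -1.48 to -1.36 in the others. C1qc was 0.86 in HDM rat 2 and 0.48 to 0.58 in the others. In adipose tissue, Vsig4 was -0.92 in HDM rat 2 and -6.84 to -6.59 in the others, the probe being above background in that rat alone. Ccl3 was 1.92 in HDM rat 2 and -1.91 to -1.15 in the others. Lyve1 was 1.72 in HDM rat 1 and 3.18 to 3.66 in the others, and Tnf -2.39 in HDM rat 1 and -0.78 to -0.66 in the others. No gene met the test for a difference between the 2 tissues.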

How the results depend on the processing

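The count of called genes in the lung, 0 of 37, became 5 when p-values were adjusted only over probes past 1.5-fold (Ccl2, Ccl7, Ccr2, Fcgr1a and Adgre1), 3 with dim probes left out (Ccl7, Ccr2 and Fcgr1a), 2 with normexp and quantile normalization (Ccl7 and Fcgr1a), 1 with quantile normalization (Fcgr1a) and 1 with array weights (Ccr2); the other settings, leaving out each rat included, gave 0. Over all probes the lung count of 390 was 0 with the replicate block, 25 with the slide row, 61 with limma treat, 166 in a joint fit of both tissues, 237 scaled to Gapdh and Hprt1, 705 with array weights, 751 with dim probes left out, 1329 when adjusted past 1.5-fold and 100 to 333 without each rat. The count of the 37 called in adipose tissue, and of those differing between tissue changes, was 0 under every alternative run, including the one leaving out 3 samples, chosen after seeing the data. Over all probes the adipose count of 0 was 338 with array weights, 106 in the joint fit, 28 when adjusted past 1.5-fold, 7 with quantile normalization, 5 with dim probes left out, 3 with median scaling, 1 with normexp and 1 with the slide row, and 0 otherwise. The lung resident median of -0.09 became 0.029 with the slide row as a block and -0.20 scaled to Gapdh and Hprt1, and ranged from -0.15 to -0.04 when each rat was left out. The lung inflammatory median became 1.08 with the slide row, and 0.49 to 0.87 leaving out rats. The adipose inflammatory median became 0.75 with median scaling, which moved the median of all probes from -0.15 to 0.14, 0.12 with the slide row and 0.16 without HDM rats 1 and 2 and control rat 1, and 0.23 to 0.77 leaving out rats, and the resident one 0.27 to 0.88, and 0.94 with the slide row and 0.36 with the replicate block. Adipose Vsig4 turned to -0.53 with the slide row, -0.57 without HDM rat 2 and -0.13 without the 3 samples, and Ccl3 to -0.35, -0.27 and -0.33, and to -0.42 with array weights; leaving out each rat gave -0.57 to 1.02 for Vsig4 and -0.27 to 0.75 for Ccl3. In control rats the 26 genes called between tissues became 15 with quantile normalization, 11 with limma treat, 0 with a t-test of the within-rat differences, and 5 to 10 leaving out rats. With the replicate number as a block the counts were 0 in the lung and in adipose tissue, and without the block between tissues 28; the cause of these shifts was not tested.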
